A study of Caenorhabditis elegans with 2 samples.

Results

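Translation factors load ribosomes onto messenger RNA and drive them along it. The genes described here are the 37 protein-coding genes of the nematode Caenorhabditis elegans whose symbols begin with eif-, ife-, ifg- or eef-, out of 19973 nuclear protein-coding genes. By symbol, 31 encode initiation factors (eif-, ife-, ifg-) and 6 encode elongation factors (eef-), and the choice used names alone. The measurement is ChIP-seq, sequencing of the DNA that is precipitated with a protein, for CEH-45, a homeodomain protein of the goosecoid class. The animals were whole late embryos with a labelled age of 2 hours, obtained by bleaching, of strain RW12292. In that strain, genome editing with CRISPR placed a TY1, EGFP and 3xFLAG tag in ceh-45 (allele st12292). Chromatin was precipitated through GFP in 2 biological replicates, which form 1 group with no second condition. Only the tagged strain was sampled, and in whole embryos a strong site in few cells and a weak site in many cannot be told apart.

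Each candidate peak has an IDR (irreproducible discovery rate), a low value meaning that few peaks ranked as high or higher should fail to repeat. The larger ranked list of the series held 108916 candidates, and 548 of them form its thresholded set, all with an IDR of at most 0.01. A conservative version and the own lists of each replicate were also used. What was compared to obtain the IDR is not stated in the sources used here for the larger list or each replicate's own list. An IDR from a replicate's own list need not measure repetition in the other replicate. IDRs of different lists may therefore not measure the same kind of repetition. Signals are the authors' peak values without a stated scale, so they were compared within a list only, and the depth of the libraries is unknown. A gene was given every candidate whose summit fell in its window, which reached 2000 bp upstream and 500 bp downstream of each of its transcript starts. All 37 translation factor genes had at least 1 candidate in that window.

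Initiation begins when eIF2 brings the initiator tRNA to the small ribosomal subunit, where eIF1, eIF1A and the large eIF3 complex hold it for scanning. The cap-binding protein eIF4E and its scaffold eIF4G bring the messenger RNA, and eIF2B recharges eIF2 with GTP. In elongation, eEF1A delivers aminoacyl-tRNAs, the eEF1B subunits reload eEF1A with GTP, and eEF2 moves the ribosome by a codon. Many of these factors are made in nearly all cells, and the genes of those are usually counted among the housekeeping genes.

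The sequence within 50 bp on either side of the summit of the highest candidate is shown for 4 genes on build ce11 (RefSeq copy of the WBcel235 assembly), read along the strand of the gene. The eEF1A genes are shown because they held the highest candidates of the elongation factors, and eif-3.G and eif-3.D because they carry a word described with the motifs. Capitals mark matches, on either strand, to the words that were searched: the repeat GAGAGA and the E-box CANNTG at eef-1A.1, and the E-box together with GCGCAA at eif-3.G and eif-3.D. At eif-3.G a match to each of these last words overlaps the other. No searched word was found at eef-1A.2, and none of the 4 windows overlapped an annotated UTR.
eef-1A.2 (chrX:7823333-7823433, plus strand): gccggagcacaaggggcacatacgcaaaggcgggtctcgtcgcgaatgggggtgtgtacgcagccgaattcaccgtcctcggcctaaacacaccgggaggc
eef-1A.1 (chrIII:6971997-6972097, minus strand): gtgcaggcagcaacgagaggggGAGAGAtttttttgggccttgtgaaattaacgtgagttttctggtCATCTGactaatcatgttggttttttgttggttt
eif-3.G (chrII:8442389-8442489, plus strand): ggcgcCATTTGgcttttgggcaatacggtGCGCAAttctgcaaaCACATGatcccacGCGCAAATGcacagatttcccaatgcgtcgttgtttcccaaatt
eif-3.D (chrIII:8971777-8971877, minus strand): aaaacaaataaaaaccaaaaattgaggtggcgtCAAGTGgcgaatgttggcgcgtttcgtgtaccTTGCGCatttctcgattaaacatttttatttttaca

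Few translation factor genes had a thresholded peak. Of the 37, eif-3.C and eif-3.I had one in the larger set, or 5.41% (exact 95% binomial interval 0.661 to 18.2), and among all protein-coding genes the share was 2.15%. The background lies inside the interval. Both genes encode eIF3 subunits and both are initiation factors, so the count was 2 of 31 for initiation (6.45%, interval 0.791 to 21.4) and 0 of 6 for elongation (interval 0 to 45.9). These intervals overlap over most of their length. The classes follow the symbols, so they leave out iff-2, a gene of eIF5A, which had a peak of the larger set and is described with the other pathway genes. In the conservative set eif-3.C was the only member, where 1.83% of all genes had a peak. It was again the only member in the own sets of replicate 1 and replicate 2, where the shares of all genes were 1.12% and 0.886%.

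The peak at eif-3.C, which encodes a core subunit of eIF3, was in all 4 thresholded sets. It covered chrI:9979775-9980078 on ce11, with the summit in intergenic sequence 265 bp upstream of the annotated start of eif-3.C (WBGene00001226, minus strand). Its signal was 114.3 with an IDR of 0.000946, and 131 peaks of the larger set were higher (rank 132 of 548). In replicate 1 the peak had a signal of 59.8 and an IDR of 0.00227, and in replicate 2 a signal of 54.7 and an IDR of 0.00138. The summits of the replicates lay 39 bp apart, and both replicates placed eif-3.C above 99% of the genes that had a candidate (percentiles 99.2 and 99.1). No other protein-coding gene had its window over this summit, and no tRNA, snRNA, snoRNA or rRNA gene lay within 250 bp of it. The next gene upstream is sys-1, a beta-catenin gene on the same strand that ends 400 bp away.

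The peak at eif-3.I, the gene of another eIF3 subunit, stood just inside the threshold and in the larger set alone. It covered chrI:2485510-2485813, with the summit 199 bp upstream of an annotated start of eif-3.I (WBGene00001232, plus strand). Its signal of 66.7 ranked 424 of 548, and its IDR of 0.00955 was close to the limit of 0.01. In the conservative list the same peak had an IDR of 0.0245 and did not pass. Replicate 2 had a candidate of signal 40.8 there with an IDR of 0.0303, and replicate 1 had one of signal 26.4 with an IDR of 0.908. Replicate 2 was thus the higher of the replicates, at percentile 98.2 of its genes against 83.7, and neither passed in its own list. The summit also lay 271 bp upstream of abtm-1, the divergent neighbour that encodes a mitochondrial ABC transporter, so the peak belongs to a promoter region shared by both genes.

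**Figure D1:**
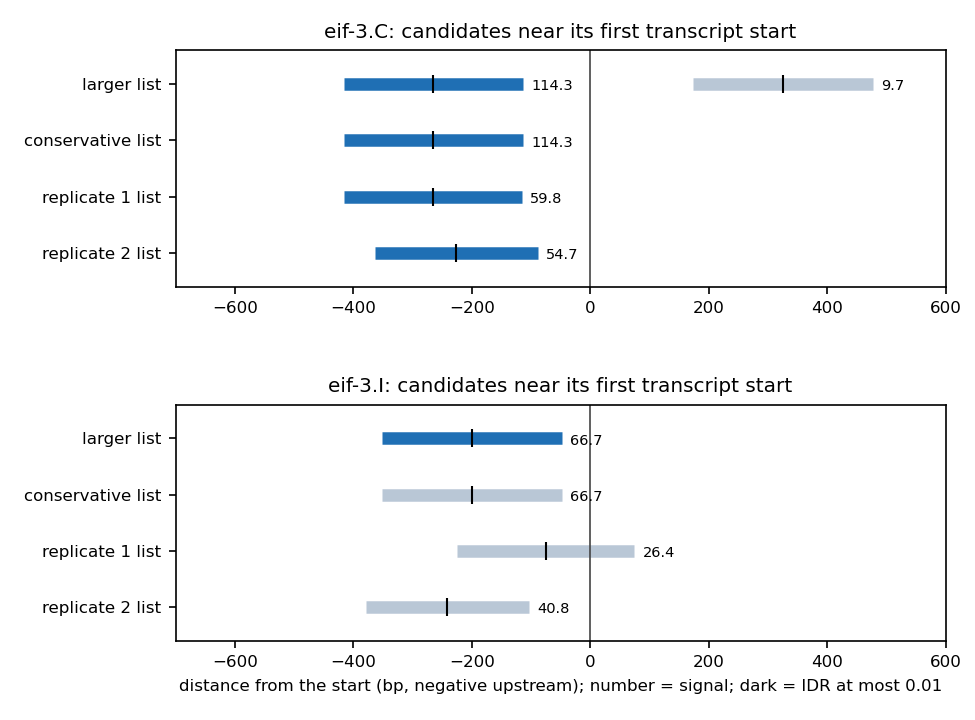
Candidate peaks near the first transcript start of eif-3.C (top) and eif-3.I (bottom) in the 4 ranked lists; the x axis is the distance from the start in bp, bars are peaks, black ticks are summits, numbers are signals, and dark bars have an IDR of at most 0.01. At eif-3.C all 4 lists hold a dark bar about the same place, and at eif-3.I only the larger list does.

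The other 9 eIF3 genes had no thresholded peak, and the highest candidates of 8 of them were above the median of all genes. Over the 11 eIF3 genes among the 37, the highest signal per gene ranged from 20.5 to 114.3 with a median of 42.4. The eIF3a gene egl-45, counted with the other pathway genes because of its symbol, had 19.2. The median over the 17997 genes with a candidate was 30.2 (quartiles 23.5 and 37.9). eif-3.E had a candidate of signal 53.1 and IDR 0.0797, 227 bp upstream of its start. That candidate was also in the windows of B0511.17 and tag-344. In replicate 1 the highest candidate of eif-3.E had a signal of 34.8 and in replicate 2 one of 19.6 at another place, 595 bp away. At eif-3.K, whose product is dispensable for viability in this worm, the highest signal was 46.8, 1269 bp upstream of the start in an intron of the neighbour pqn-68. There replicate 1 gave 29.3 and replicate 2 gave 19.7, with summits 24 bp apart. eif-3.G and eif-3.B, an RNA-binding subunit and a scaffold subunit, had signals of 42.6 and 42.4 at 328 and 182 bp upstream. The eif-3.G candidate had 21.9 in replicate 1 and 22.4 in replicate 2, with summits 10 bp apart, whereas at eif-3.B replicate 1 gave 17.8 and the highest candidate of replicate 2, at 13.5, lay 1124 bp away. eif-3.D, which contacts the messenger RNA cap in mammals, had a signal of 38.5. eif-3.F, eif-3.H and eif-3.J followed with 37.2, 36.9 and 35.6. eif-3.L was the lowest of the 11 with a signal of 20.5, 1988 bp upstream in an exon of npl-4.2, and neither replicate listed any candidate in its window.

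Outside eIF3, no initiation factor gene passed, and the level varied between and within families. The 5 eIF4E genes ranged from 33.0 at ife-2 to 52.8 at ife-3, all above the median of all genes, with ife-5 at 39.1, ife-1 at 37.8 and ife-4 at 33.3 between them. The ife-3 candidate had an IDR of 0.0298, the lowest of any translation factor gene after eif-3.C and eif-3.I. Its signal was 21.5 in replicate 1 and 32.9 in replicate 2, with summits 15 bp apart, 1393 bp upstream of the start in the larger list, in a window it shares with B0348.10. In the larger list the 3 eIF2 genes were all below the median of all genes, with signals of 28.7 at eif-2alpha, 25.9 at eif-2gamma and 17.3 at eif-2beta. The replicates differed at eif-2alpha, with 17.0 in replicate 1 (percentile 36.6) and 27.1 in replicate 2 (percentile 89.7), at summits 3181 bp apart. At eif-2gamma and eif-2beta replicate 1 gave 16.8 and 12.1, and replicate 2 listed no candidate. eif-2alpha encodes the subunit that is phosphorylated under stress to slow initiation.

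Of the 5 eIF2B genes, eif-2Bgamma stood apart from the rest. Its highest candidate had a signal of 48.9 and an IDR of 0.0517, and the others had 30.3 at eif-2Bepsilon, 30.2 at eif-2Bbeta, 29.6 at eif-2Balpha and 23.3 at eif-2Bdelta. This candidate lay 777 bp upstream in an intron of C15F1.5, at the snRNA gene sup-39, and 57.3% of the 31-base words within 100 bp of its summit occur more than once in the assembly. Replicate 1 had a signal of 34.04 and replicate 2 one of 20.6 there. It was the only highest candidate of the 37 genes within 250 bp of a small structural RNA gene. The part of that RNA gene in the signal was not tested. The candidate of this window that lay farther than 250 bp from such a gene had a signal of 24.7 and an IDR of 0.821.

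The remaining initiation genes were spread over the range. eif-2D, which can bring initiator tRNA without eIF2 in mammals, had a signal of 41.6 and an IDR of 0.109, 285 bp upstream, with a candidate of signal 23.4 in replicate 2 and none in replicate 1. eif-1.A and eif-1, the genes of the scanning factors, had signals of 40.5 and 40.2, at 80 bp upstream for eif-1.A and 1927 bp upstream for eif-1, in exonic sequence where vps-24 and rnh-1.0 overlap. At eif-1.A replicate 1 gave 21.9 and replicate 2 a candidate of 14.99 at the same place, while the highest candidate of replicate 2, at 20.2, lay 1550 bp away. eif-4A3, a helicase of the exon junction complex that carries an eif- symbol, had 36.7. eif-2A had 23.8. The eIF4G gene ifg-1 had 21.0 and eif-6, whose product keeps the large subunit from joining early, had 20.5. eif-2A, ifg-1 and eif-6 had an IDR of 0.821, the highest among the 37 genes, as had eif-3.L, eif-2beta and eef-1B.1.

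Among the 6 elongation factor genes, the eEF1A genes were highest. eef-1A.2 (WBGene00001169) had a signal of 56.8 at chrX:7823231-7823534, 271 bp upstream of its start. It was 25.4 in replicate 1 and 31.8 in replicate 2, with summits 2 bp apart. eef-1A.1 (WBGene00001168), formerly eft-3 and known for its strong and broadly active promoter, had a signal of 47.3 at chrIII:6971895-6972198, 335 bp upstream. It was 27.3 in replicate 1 and 31.1 in replicate 2, with summits 47 bp apart. Both genes were high among the genes with a candidate in each replicate, by their percentiles (80.7 and 95.4 for eef-1A.2, 86.0 and 94.95 for eef-1A.1). Their IDRs in the larger list were nonetheless 0.623 and 0.185, and in the conservative list 0.0480 and 0.0301, all short of the limit. In the own lists of replicate 1 and replicate 2 the IDRs were high, at 0.912 and 0.884 for eef-1A.2 and 0.744 and 0.903 for eef-1A.1. The summit at eef-1A.1 lay inside the annotated microRNA gene cel-mir-5549, and also in the windows of F31E3.2 and the divergent gene rfc-4.

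The other 4 elongation factor genes were lower and were not listed evenly by the replicates. eef-1G, of the eEF1B complex, had a signal of 34.7, with 15.1 in replicate 1 and 23.3 in replicate 2. Its summit lay in an intron of eef-1G itself, 61 bp upstream of the nearest of its 5 transcript starts. eef-2 had a signal of 31.6, 581 bp upstream in an exon of the divergent gene clsp-1. eef-1B.1 had 22.9 and eef-1B.2 had 19.1. For these 3 genes replicate 1 listed candidates of 18.6, 13.5 and 12.9 and replicate 2 listed none. The 2 eEF1A genes therefore did not overlap the other 4 in the larger list or in replicate 1, and in replicate 2 they were higher than the only other one listed.

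**Figure D2:**
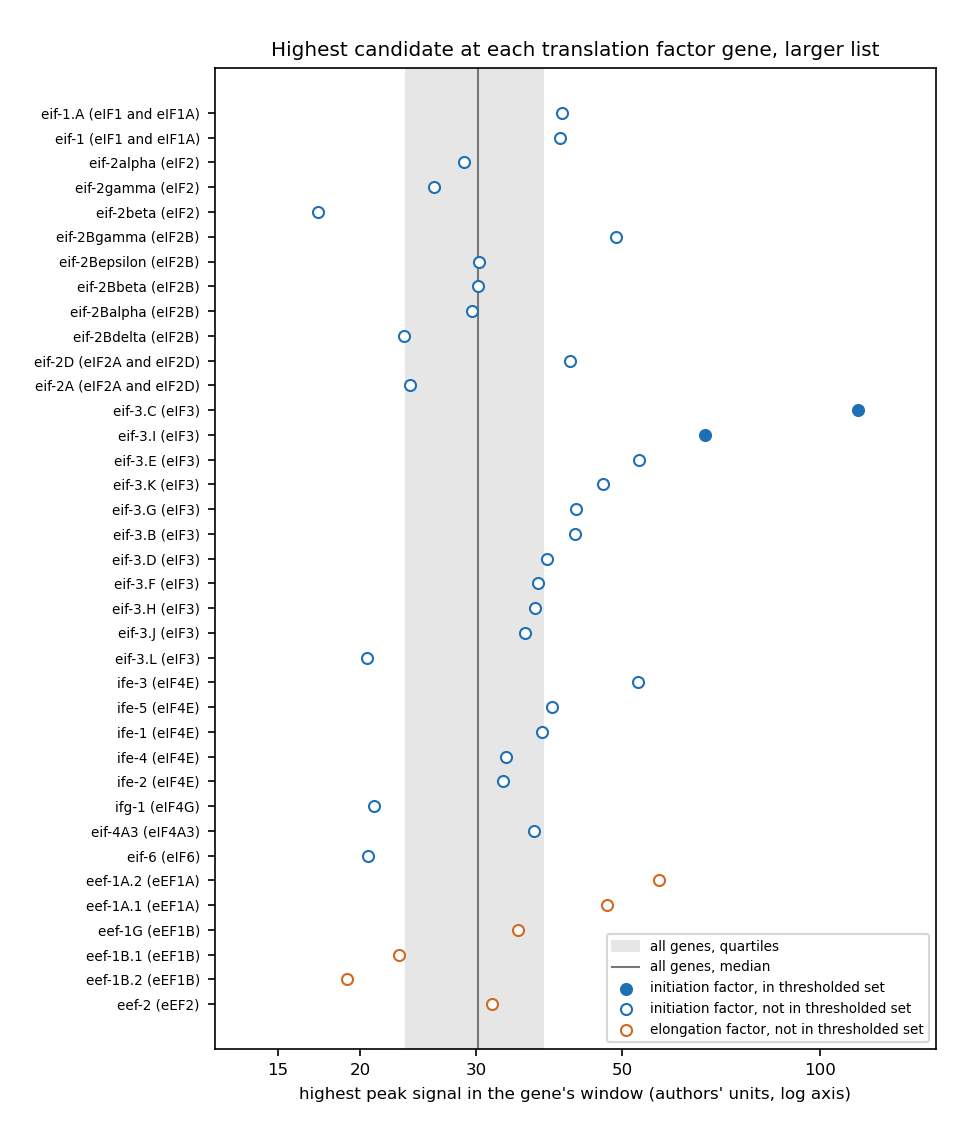
Highest peak signal in the window of each of the 37 genes in the larger list (log axis), 1 point per gene, ordered by factor; filled points have a peak in the larger thresholded set, the band spans the quartiles of the 17997 genes with a candidate and the line is their median of 30.2. The eIF3 genes reach from 20.5 to 114.3, the eIF2 genes lie left of the line, and the eEF1A genes lead the elongation factors.

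Initiation and elongation factors overlapped in signal. The median highest signal was 36.9 over the 31 initiation genes (quartiles 29.2 and 42.0, range 17.3 to 114.3) and 33.2 over the 6 elongation genes (quartiles 25.1 and 44.2, range 19.1 to 56.8). Of the initiation genes 22, and of the elongation genes 4, were above the median of all genes. The order was not the same in the replicates. In replicate 1 the medians were 20.03 over 26 initiation genes with a candidate and 16.8 over all 6 elongation genes, beside 19.1 for all genes. In replicate 2 they were 19.98 over 26 and 31.1 over the 3 elongation genes that had a candidate, beside 18.1. With a promoter window of 500 bp upstream to 100 bp downstream the medians were 31.5 over 24 initiation and 33.1 over 6 elongation genes, beside 23.5. The difference between the classes was not tested, since genes are not replicates of a condition and the direction changed with the list and the window. Window length (medians 2501 and 2506 bp) and candidates per kb (1.14 and 1.08) were close in both classes.

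Looser IDR limits added ife-3, eif-2Bgamma and eif-3.E to the genes that passed. At an IDR of at most 0.05, 3 of the 37 genes (8.11%) had a candidate in the larger list, beside 4.95% of all genes. These were ife-3 and the passing genes eif-3.C and eif-3.I. At an IDR of at most 0.1 there were 5 (13.5%), with eif-2Bgamma and eif-3.E added, beside 7.75% of all genes. The eif-2Bgamma candidate is the one at the snRNA gene sup-39. All 5 are initiation factor genes, as are 31 of the 37. The conservative list gave another picture. There the highest candidates of eif-3.C, eif-3.I, eef-1A.1 and eef-1A.2 had IDRs of 0.000812, 0.0245, 0.0301 and 0.0480. Those of ife-3, eif-2Bgamma and eif-3.E had 0.155, 0.139 and 0.161.

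Most of the highest candidates lay on the upstream side, and many were close to the start. The summit was upstream of the nearest annotated start at 34 of the 37 genes (91.9%), beside 79.3% of all genes with a candidate. At eef-1G, eif-4A3, eif-2alpha and ife-5 it lay inside the gene itself, upstream of a later start of that gene. The window itself reaches 2000 bp upstream and 500 bp downstream, so its shape places most summits upstream. At 19 genes, or 51.4% (exact 95% interval 34.4 to 68.1), the summit lay from 500 bp upstream to 100 bp downstream. Over all genes that share was 28.9%. By class it was 15 of 31 and 4 of 6. The eIF3 genes had 7 of 11 there and the eIF4E genes 1 of 5. The median distance from the start was 285 bp over the 37 genes and 642 bp over all genes. In the replicates' own lists the share was 43.8% of 32 genes (interval 26.4 to 62.3, all genes 29.4%) in replicate 1 and 41.4% of 29 (interval 23.5 to 61.1, all genes 28.8%) in replicate 2. The share of all genes thus lay below the interval in the larger list and inside it in either replicate. Those 19 genes include eef-1G, eif-4A3 and eif-2alpha, with summits inside the gene. With only the outermost start of each gene, the larger list gave 43.2% (interval 27.1 to 60.5). The share of all genes, 27.5%, then lay inside the interval.

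**Figure D3:**
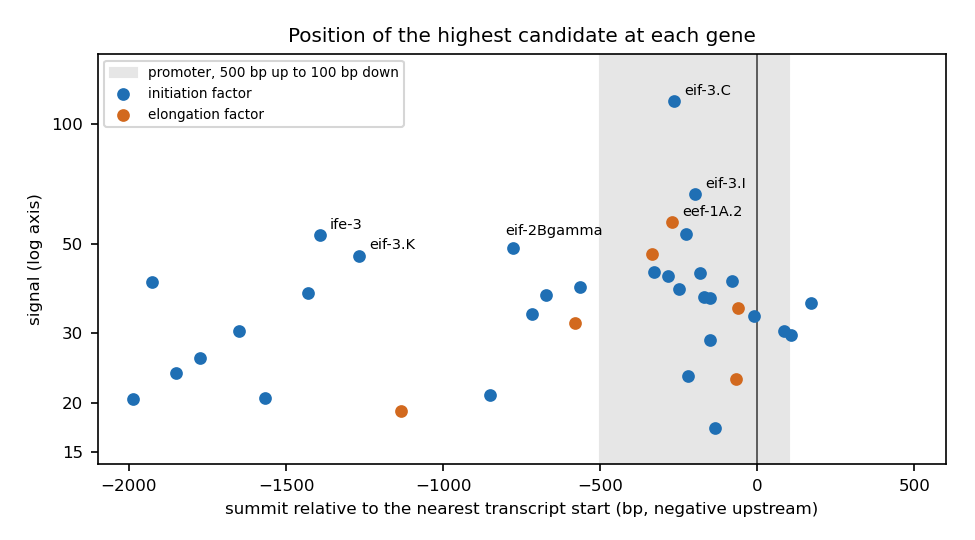
Summit of the highest candidate of each of the 37 genes relative to its nearest transcript start (x axis, bp, negative upstream) and its signal (y axis, log), with the promoter shaded. The candidates of eif-3.C, eif-3.I and eef-1A.2 lie in the shaded part, and those of ife-3, eif-3.K and eif-2Bgamma farther upstream.

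The replicates often put the highest candidate of a gene at different places. Replicate 1 listed a candidate for 32 of the 37 genes and replicate 2 for 29, and 25 had one in both. In 8 of these 25, or 32%, the highest summits lay within 150 bp of each other, and over all genes this share was 33.9%. The 8 were eef-1A.1, eef-1A.2, eif-2Bgamma, eif-3.C, eif-3.G, eif-3.K, ife-3 and ife-5. Taken from the larger list, the highest candidate was overlapped by candidates of both replicates at 14 of the 37 genes (37.8%, and 35.7% of all genes), by those of 1 replicate at 21, and by none at eif-3.L and eif-6 (5.41%, and 18.2% of all genes).

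**Figure D4:**
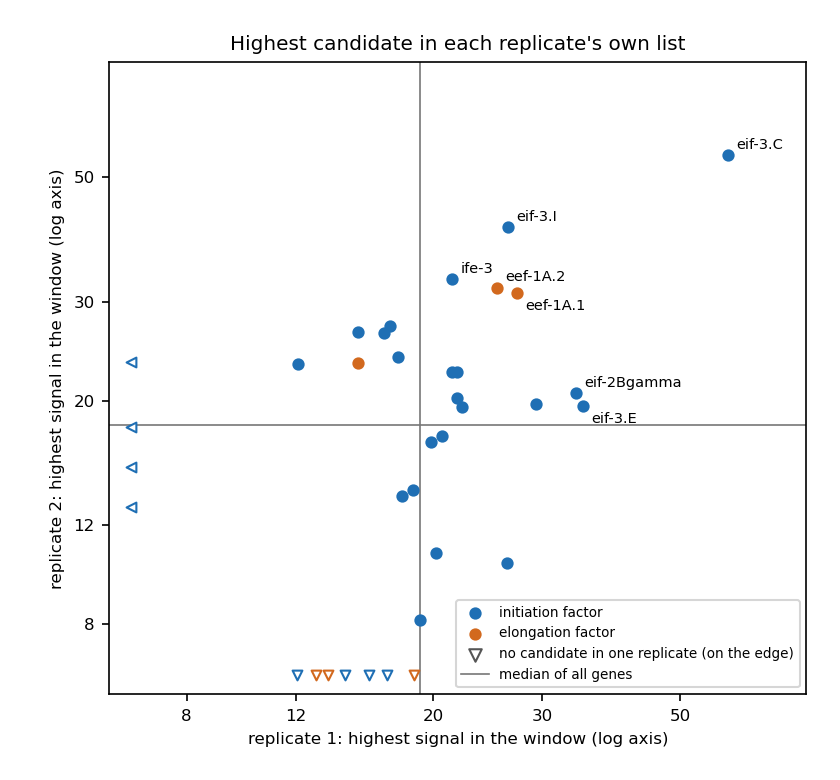
Highest signal in the window in replicate 1 (x axis) and replicate 2 (y axis), both log axes, 1 point per gene; lines are the medians of all genes (19.1 and 18.1), and open triangles on the edge are genes with a candidate in 1 replicate only. eif-3.C is far above both medians, eif-3.I and ife-3 stand farther above the median of replicate 2, and eif-3.E and eif-2Bgamma farther above that of replicate 1.

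The surroundings of the genes were mixed. Summits of the highest candidates lay in intergenic sequence at 18 genes, in exons at 11 and in introns at 8, shares of 48.6%, 29.7% and 21.6%, where all genes gave 44.5%, 34.8% and 20.7%. At 21 of the 37 the same summit also lay in the window of another protein-coding gene, so those candidates cannot be given to the translation factor alone; over all genes the share was 39.4%. The nearest upstream gene was divergent at 19 of the 37 (51.4%, and 45.4% of all genes). It was on the same strand within 500 bp at 7 (18.9%, and 18.1% of all genes), a spacing found between genes of an operon; operon annotation was not used here. The 37 genes were unevenly placed: 12 lie on chromosome I, where 14.4% of protein-coding genes lie, 11 on II, 5 on III, 4 on V, 3 on X and 2 on IV.

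Words in the windows that reach 50 bp either side of the summit were counted on both strands. None of the 37 windows held TAATCC, the core that goosecoid-class homeodomains are known to bind, and 3.41% of the windows of all genes did. None of the promoters of the 37 genes, taken from 250 bp upstream to 50 bp downstream of the outermost start, held it either, beside 9.40% of all promoters. The lack of these letters in a window says nothing about binding. The word GCGCAA was in 5 of the 37 windows (13.5%) and in 3.45% of the windows of all genes. These were the windows of eif-3.C, eif-3.D, eif-3.G, eif-2gamma and eif-2Bepsilon, so 5 of 31 initiation genes and 0 of 6 elongation genes held the word. At eif-3.C it stood at 2 places, centred 10.5 and 5.5 bp from the summit, and at eif-3.G at 18.5 and 9.5 bp. In windows of the same width 300 bp away it was found at 1 gene. The word was taken up because it led the words at thresholded peaks away from small RNA genes in earlier results of these data, so its presence at eif-3.C is not independent of that choice. In promoters it was found at 2 of the 37 genes, or 5.41%, beside 7.11% of all promoters. The E-box, spelled CANNTG, was in 9 windows (24.3%, and 35.4% for all genes). TAATTA was in 1 window, beside 3.56% of all genes, and the repeat GAGAGA at eef-1A.1 alone, beside 7.17%. The GC-rich word GGGCGG was in none of the 37 windows (3.46% of all genes), nor was GTTCGA, a part of the tRNA gene B box (3.77%), nor the word CGAACC (2.41%).

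Other genes of the pathway were counted with a list of 54 symbols, of which 44 are symbols of this annotation. A peak of the larger set lay in the window of 5 of them, or 11.4% (exact 95% interval 3.79 to 24.6), beside 2.15% of all genes. The median highest signal over the 41 with a candidate was 33.8. atx-2, the ataxin-2 gene, had the highest, with a signal of 265.9 at 58 bp upstream, and was in all 4 sets. iff-2, a gene of eIF5A, which helps ribosomes past difficult peptide bonds, had a signal of 94.8 at 65 bp upstream. ifet-1, whose product binds eIF4E and represses messenger RNAs, had 77.2, in a window shared with rps-1. larp-1 had 72.9 and erfa-3, the release factor eRF3, had 66.8. Without a passing peak, pab-2 (56.9), abcf-2 (50.8) and pelo-1 (49.5) led. All 5 peaks also lay in the window of another gene, and egl-45, the eIF3a gene, had a signal of 19.2. Of the 8 genes of stress and growth control, the 6 of diphthamide synthesis, which modifies eEF2, and the 5 mitochondrial factors, none passed.

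Ribosomal protein genes and aminoacyl-tRNA synthetase genes were counted in the same way. Of 78 cytosolic ribosomal protein genes 12 had a peak of the larger set (15.4%, exact 95% interval 8.21 to 25.3) with a median highest signal of 39.0, and of 32 aminoacyl-tRNA synthetase genes 1 had (3.12%, interval 0.0791 to 16.2) with a median of 30.8. The share of the 37 factors lay between these in the larger set, at 5.41%. In the conservative set it was 2.70% beside 15.4% and 3.12%, and 1.83% of all genes. In the own sets of replicate 1 and replicate 2 it was also 2.70%, beside 3.12% of the synthetase genes. There the ribosomal protein genes had 11.5% and 7.69%, and all genes 1.12% and 0.886%. Both 2.70% and 3.12% stand for 1 gene, of 37 and of 32, so their order rests on group size alone. In the larger set the interval for the 37 factors overlaps those of both groups, and the differences were not tested. Highest candidates in the promoter were 54.5% of the ribosomal protein genes and 53.3% of the synthetase genes, beside 51.4% of the translation factors. The other pathway genes had 26.8% there (11 of 41), with a median distance of 826 bp, beside 28.9% of all genes.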

How the data were processed

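The authors deposited peak lists on build ce11, made, per the notes deposited with them, from the replicates' alignments and further input files that the notes do not describe. What aligned the reads and called the peaks is not given in the sources used here. Control libraries are not analysed here. Peak signal was used as the authors deposited it. The −log10 of the global IDR is also deposited, and was turned into the IDR. The larger lists (108916 ranked, 548 thresholded), the conservative lists (71732 and 463) and each replicate's own lists (41437 and 258, 43328 and 227) were read separately.

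Genes, transcript starts and biotypes came from Ensembl release 115 and sequence from RefSeq, both of the WBcel235 assembly, which has ce11 coordinates. For each gene the highest signal in the window was kept. Percentiles are among genes with a candidate in the same list. Overlap means at least 1 bp. Intervals are exact 95% binomial intervals and cover counting over genes only. Members are genes and not replicates, so no test was run between classes. The replicates' spread is given as both values. Assignment was tested on simulated data. All 37 genes are named; described in full are genes with a thresholded peak, all elongation factors and the next 8 initiation factors by signal. Other genes were named after their values were seen, as were the IDR limits of 0.05 and 0.1 and the ribosomal and synthetase comparison. The members, lists and words were chosen with earlier results of these data known. Listed symbols that are not in this annotation (10) were not counted. Python 3.11.15, numpy 2.4.6, pandas 2.3.3, scipy 1.17.1 and matplotlib 3.10.9 were used. The sequence at 1 gene is not reported here.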

Additional observations from a re-analysis of the deposited data

How the results depend on the processing

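The count of 2 translation factor genes with a thresholded peak (eif-3.C and eif-3.I) was the same with windows of 500 bp up and 100 bp down (1.08% of all genes) or 1000 bp up and 500 bp down (1.62%), with interval overlap (2.27%), with the nearest gene only (1.47%), with the outermost start (1.96%) and without peaks near small RNA genes (1.64%). It was 1 (eif-3.C) in the conservative set (1.83% of all genes), at an IDR of at most 0.001 (0.451%) and in the own set of either replicate (range 1 to 1; 1.12% and 0.886%). The cause was not tested.

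The median highest signal of initiation factors was 37.8 in the conservative list, 31.5 and 33.2 with the 2 narrower windows, 37.2 with interval overlap, 33.3 with the nearest gene, 35.6 with the outermost start, 36.7 without small RNA peaks and 37.8 without eIF2B, eif-2A, eif-2D and eif-6. In the replicates' own lists, where the medians of all genes are lower too (19.1 and 18.1), it ranged from 19.98 to 20.03, and the elongation median from 16.8 to 31.1. The other alternatives for elongation gave 30.5 to 33.2. The share of highest candidates in the promoter was 43.2% with the outermost start (interval 27.1 to 60.5), beside 27.5% of all genes. With a narrower promoter of 250 bp up and 50 bp down, a different quantity, it was 35.1% (interval 20.2 to 52.5), beside 15.7%. The count of other pathway genes was 3 with the promoter window (1.08% of all genes), 3 in the conservative set (6.82% of the 44, and 1.83% of all genes), and 3 and 2 in the own sets of replicate 1 and replicate 2 (1.12% and 0.886%). TAATCC was in 0 windows in each of the 2 alternatives. Depth is unknown, so a missing candidate does not show that a gene is unbound.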

Other observations

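Sequence that is not unique in the genome lay under few of the highest candidates. Of the 37 genes, 4 had any 31-base word within 100 bp of the summit that occurs more than once in the assembly. The share of such words was 65.5% at eif-3.L, 57.3% at eif-2Bgamma, 8.77% at ife-5 and 7.02% at eif-2A.

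The highest candidate of a gene was not always the one with the lowest IDR. It was not at 9 of the 37 genes, or 24.3%, beside 22.04% of all genes with a candidate. At eef-1A.2 the highest candidate had a signal of 56.8 and an IDR of 0.623, and a lower one, 271 bp downstream of the start with a signal of 41.9, had an IDR of 0.278. At ife-2 the values were a signal of 33.0 with an IDR of 0.639, and the lowest IDR in the window was 0.331.

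GC content within 50 bp of the summit was 41.7% ± 9.61 (SD over 37 genes) for the translation factors and 39.9% ± 8.92 (SD over 17997 genes) for all genes. It was 64.4% at eef-1A.2 and 42.6% at eef-1A.1, so the eEF1A candidates, close in signal, differed in base composition. The windows of eef-1B.2 and eif-2beta, both among the lowest in signal, had 21.8% and 60.4%.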
